A study of Oryza sativa with 5 samples.

Results

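Genes of starch, sucrose and trehalose metabolism were examined in seedlings of hybrid rice with altered levels of the histone deacetylase OsHDT1. A gene was taken as a member when its description in the deposited expression tables held the words sucrose, starch, trehalose, invertase, amylase or glucose-1-phosphate adenylyltransferase, which gave 81 of the 22546 genes listed. By their descriptions the members fell into 11 role groups. Those of starch were ADP-glucose pyrophosphorylase (6 genes, all described as large subunits), starch synthase (9), beta-amylase (9) and alpha-amylase (7). The rest were sucrose synthesis (8), sucrose synthase (6), neutral or alkaline invertase (7), invertase inhibitor (10), sucrose transporter (2), trehalose (12) and other (5).

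The libraries came from 5 genotypes of indica background, with 1 library each. FU was a hybrid that over-expressed OsHDT1 from the maize ubiquitin promoter, and FR was a hybrid that carried an OsHDT1 RNAi fragment behind the CaMV 35S promoter. Both descended from transgenic MH63 plants crossed to ZS97, so that the transgene entered through the restorer parent. SY63 (Shanyou 63) was the hybrid without a transgene, MH63 (Minghui 63) its male parent and ZS97 (Zhenshan 97) its female parent. The seedlings, 15 days of age, came from diluted MS medium. The study's growth conditions for long days were 15 h of light at 30 °C and 9 h of darkness at 25 °C. According to the paper they were harvested at a single hour, in the afternoon of the subjective day, so other times of day were not measured. The transgenic line used for each library and the number of seedlings in it are not given in the sources used here.

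Leaves store part of the day's carbon as starch in the chloroplast and send the rest out as sucrose. ADP-glucose pyrophosphorylase and starch synthases build starch, and amylases take it apart again. Sucrose-phosphate synthase and sucrose-phosphatase make sucrose in the cytosol, sucrose transporters move it across membranes, and sucrose synthase and invertase cleave it in the tissues that use it, while trehalose-6-phosphate is a signal of the sucrose supply.

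The depth was similar, from 4821637 clean tags in FU to 5022081 in MH63, and 69.5% (ZS97) to 73.9% (MH63) of them lay on genes. A tag is a short sequence next to the CATG site nearest the 3′ end of a transcript, so that tags count transcripts without a correction for length, and TPM is the count of a gene scaled to all clean tags of its library. Because each genotype had 1 library, differences could not be checked against replicates, every test compares libraries and not genotypes, and 95% intervals cover counting error only. A count of 0 was taken to allow up to 3 tags, or between 0.597 TPM (MH63) and 0.622 TPM (FU). OsHDT1 (LOC_Os05g51830) had 7590 tags in FU, 142 in FR, 428 in SY63, 2633 in MH63 and 304 in ZS97, so that FU was above and FR below SY63 as labelled. MH63, without a transgene, had 524 TPM against 88.1 in SY63 and 61.3 in ZS97. By qRT-PCR over the day the paper found OsHDT1 transcripts not clearly different between MH63 and SY63. The paper describes such sampling, for flowering time genes, in young leaves of plants older than these seedlings. Its Western blots likewise gave no clear difference in OsHDT1 protein among older leaves of both parents and SY63. The comparisons with MH63 thus also hold a difference in OsHDT1 tags between these libraries, whose part in them was not tested. The 17 genes described as chlorophyll a-b binding proteins, taken as leaf markers, all had tags in all 5 libraries and summed to 13278 TPM in FU, 10928 in FR, 14174 in SY63, 5004 in MH63 and 14796 in ZS97. The MH63 library thus stood apart with a low level of these genes, and the part of this in the comparisons with MH63 was not tested. A seed storage gene, the only gene of that marker list, ranged between 28 tags (FU) and 81 tags (SY63), and no gene matched the root list. The annotated transcripts were those of japonica rice, and a tag with more than 1 mismatch or with a match to several genes was not counted, so a low count in a parent can also come from its sequence, which was not tested.

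The members together made up a like share of every library. They summed to 3245 TPM in FU, 3186 in FR, 3284 in SY63, 3061 in MH63 and 3258 in ZS97, with 65 of the 81 members found in all 5 libraries and 53 at 20 tags or more in all 5. A further 17 members stayed under 20 tags in every library, 7 of them invertase inhibitors and 3 alpha-amylases. Beneath the even total the role groups differed between the libraries. Sucrose synthase transcripts summed to 751 TPM in FU, 579 in FR, 750 in SY63, 747 in MH63 and 311 in ZS97, so that ZS97 was the lowest. Beta-amylase was highest in MH63, with 117 TPM in FU, 106 in FR, 104 in SY63, 253 in MH63 and 140 in ZS97. Starch synthase had the opposite place in MH63, with 232 TPM in FU, 180 in FR, 188 in SY63, 98.2 in MH63 and 186 in ZS97.

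**Figure D1:**
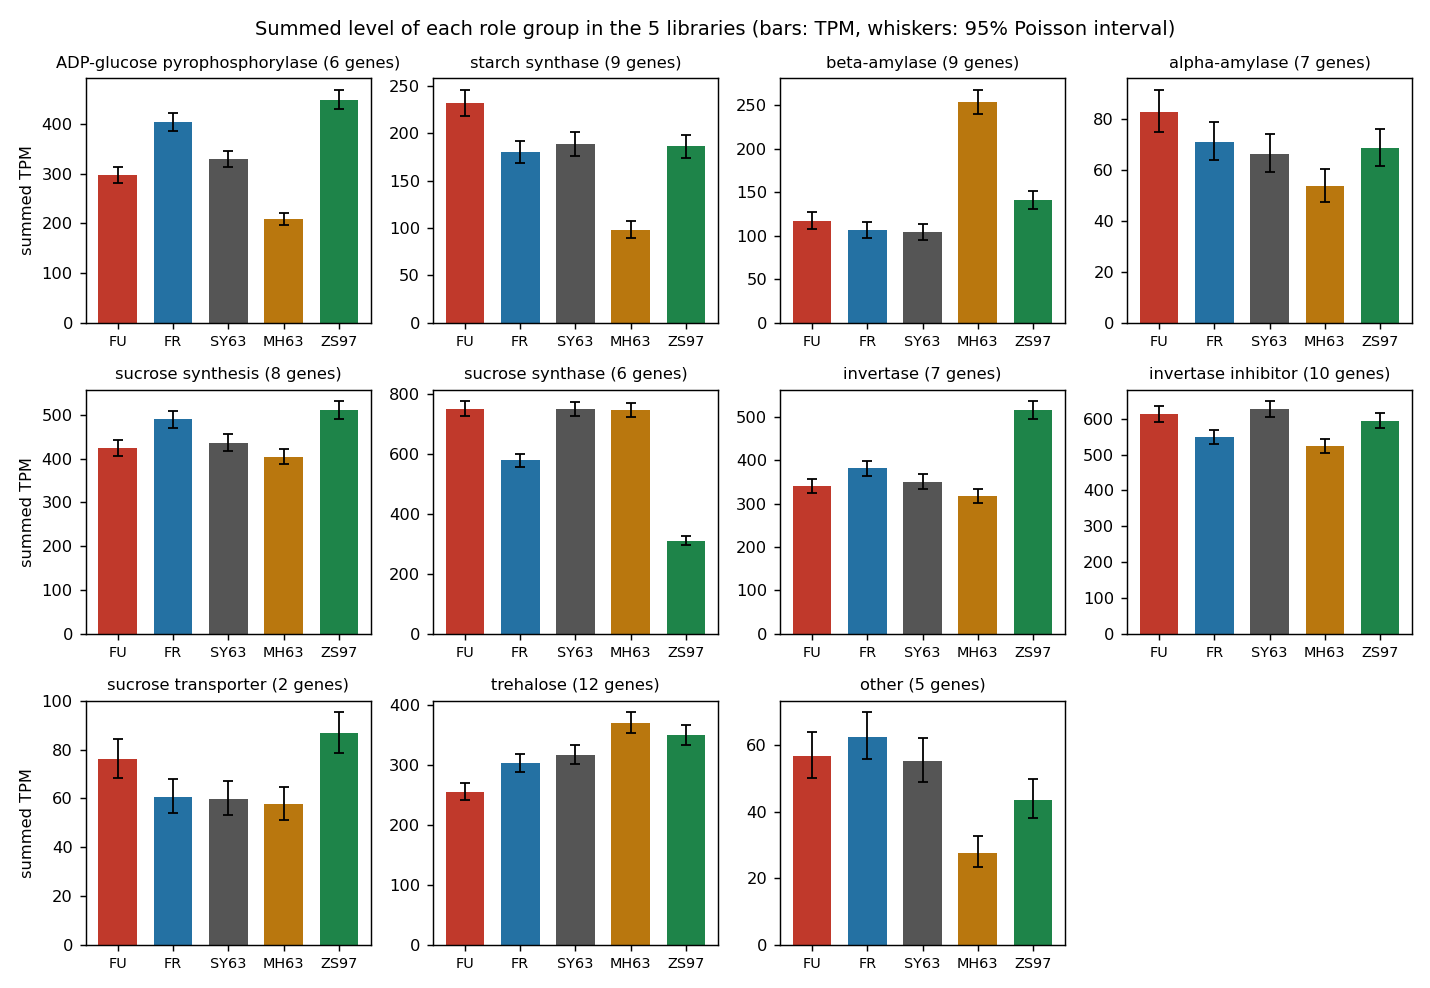
Summed level of each role group in TPM (vertical axis, from 0) in the 5 libraries (FU, FR, SY63, MH63 and ZS97 from left to right), with 95% Poisson intervals of the summed tags as whiskers. ADP-glucose pyrophosphorylase (209 TPM) and starch synthase (98.2 TPM) were lowest and beta-amylase (253 TPM) was highest in MH63, and sucrose synthase was lowest in ZS97 (311 TPM).

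The parents were compared to see which members differ between the lines that make the hybrid. A member was called at a false discovery rate (FDR) of no more than 0.001 in the Audic-Claverie exact test, with Benjamini-Hochberg adjustment over all genes, when the TPM also differed by a log2 ratio of 1 or more. In MH63 7 members were higher and 10 lower than in ZS97, of 80 with a tag in either library, and 17.5% of all genes were called (10.7% higher and 6.86% lower). Among genes with at least 20 tags in the pair, 17 of 63 members were called, against 22.1% of all genes. Those higher in MH63 were 3 sucrose synthase, 2 beta-amylase, 1 invertase and 1 invertase inhibitor gene. Those lower in MH63 were 4 starch synthase, 2 ADP-glucose pyrophosphorylase, 2 invertase, 1 invertase inhibitor and 1 sucrose transporter gene. The 5 called members with the smallest ratios, LOC_Os09g12660, LOC_Os06g06560, LOC_Os04g24430, LOC_Os01g22900 and LOC_Os10g41550, lay between -1.39 and 1.24. The median log2 ratio of MH63 to ZS97 was -0.23 over the 63 members and 0.20 over all genes. This split moved with the scaling, and with edgeR's TMM factors or DESeq2's size factors 5 members were higher and 12 lower. These factors moved every ratio of this pair by -0.18 and -0.17 on the log2 scale.

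**Figure D2:**
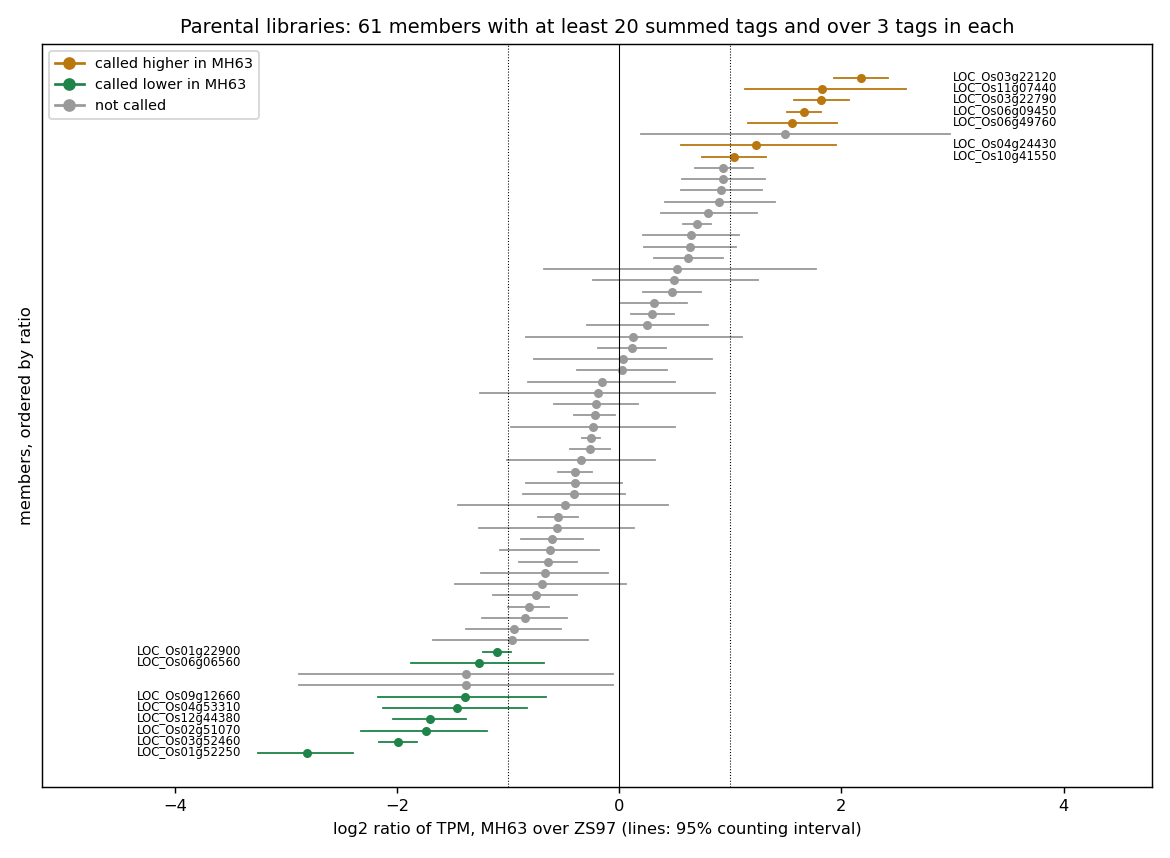
Log2 ratio of TPM of MH63 over ZS97 (horizontal axis) for the 61 members with at least 20 tags in the pair and more than 3 in each library, ordered by ratio, with lines for the 95% counting interval. Of the 15 called members drawn, 7 lie to the right (higher in MH63) and 8 to the left (lower in MH63), and LOC_Os01g52250 at -2.81 and LOC_Os03g22120 at 2.18 are the ends of the range. The called members LOC_Os04g35280 and LOC_Os08g01670 had 3 tags or fewer in MH63 and are not drawn.

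SY63 was compared with each parent and with the mid-parent value, the mean of the parental TPM. Against MH63, 7 members were higher and 9 lower in SY63, of 76 tested, where 16.5% of all genes were called (7.10% higher and 9.37% lower). The 3 called members with the smallest ratios, LOC_Os06g49760, LOC_Os01g44220 and LOC_Os03g52460, lay between -1.21 and 1.19. Here too the split moved with the scaling, to 11 higher and 9 lower with TMM factors and 10 higher and 9 lower with DESeq2's size factors (shifts of 0.16 and 0.14 on the log2 scale for every gene). Against ZS97, 2 members were higher and 2 lower, of 78 tested, where 3.95% of all genes were called (2.88% higher and 1.07% lower). Over all genes the paper gives the opposite balance for SY63, with more genes up against MH63 and more down against ZS97. The reason for this difference from the paper was not examined. Against the mid-parent, 4 were higher and 4 lower, of 80 tested, where 6.34% of all genes were called (2.85% higher and 3.49% lower). At 20 tags or more in the libraries compared, 16 of 62 members were called against MH63 (21.0% of all genes), 4 of 64 against ZS97 (5.03%) and 8 of 67 against the mid-parent (7.78%), shares not far from those of all genes. These comparisons share the SY63 library, and those with MH63 share the MH63 library, so they are not independent of each other.

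FU and FR were compared with SY63 to see whether the members moved with the OsHDT1 level. In FU 2 members were higher than in SY63 and 0 lower, of 75 tested, where 3.0% of all genes were called (2.19% higher and 0.812% lower). They were LOC_Os09g12660 (ADP-glucose pyrophosphorylase) and LOC_Os06g49760 (invertase inhibitor), of which TMM factors left the first. In FR 0 members were called, of 72 tested, where 1.16% of all genes were called (0.585% higher and 0.576% lower). Between the transgenic hybrids 3 members were higher in FU than in FR and 0 lower, of 73 tested, where 3.22% of all genes were called (2.54% higher and 0.683% lower), and they were LOC_Os09g12660, LOC_Os07g22930 (starch synthase) and LOC_Os02g58480 (sucrose synthase). With an assumed coefficient of variation of 0.2 between libraries, 0 members were called in FU against SY63 and 0 in FU against FR. The median log2 ratio of the members was 0.05 for FU to SY63 (0.05 over all genes), -0.02 for FR to SY63 (-0.04 over all genes) and 0.16 for FU to FR (0.07 over all genes). The medians against SY63 changed sign with TMM factors, to -0.03 in FU and 0.0029 in FR, and with DESeq2's size factors, to -0.02 in FU and 0.0021 in FR. At 20 tags or more in the pair, 2 of 67 members were called in FU against SY63 (3.92% of all genes), 0 of 66 in FR against SY63 (1.47%) and 3 of 67 in FU against FR (4.14%). For FR the criteria were also counted singly after the data had been seen. The FDR limit alone was met by 4 of 66 members, against 6.85% of all genes, and the log2 ratio limit alone by 2 higher and 1 lower, against 6.77% of all genes.

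**Figure D3:**
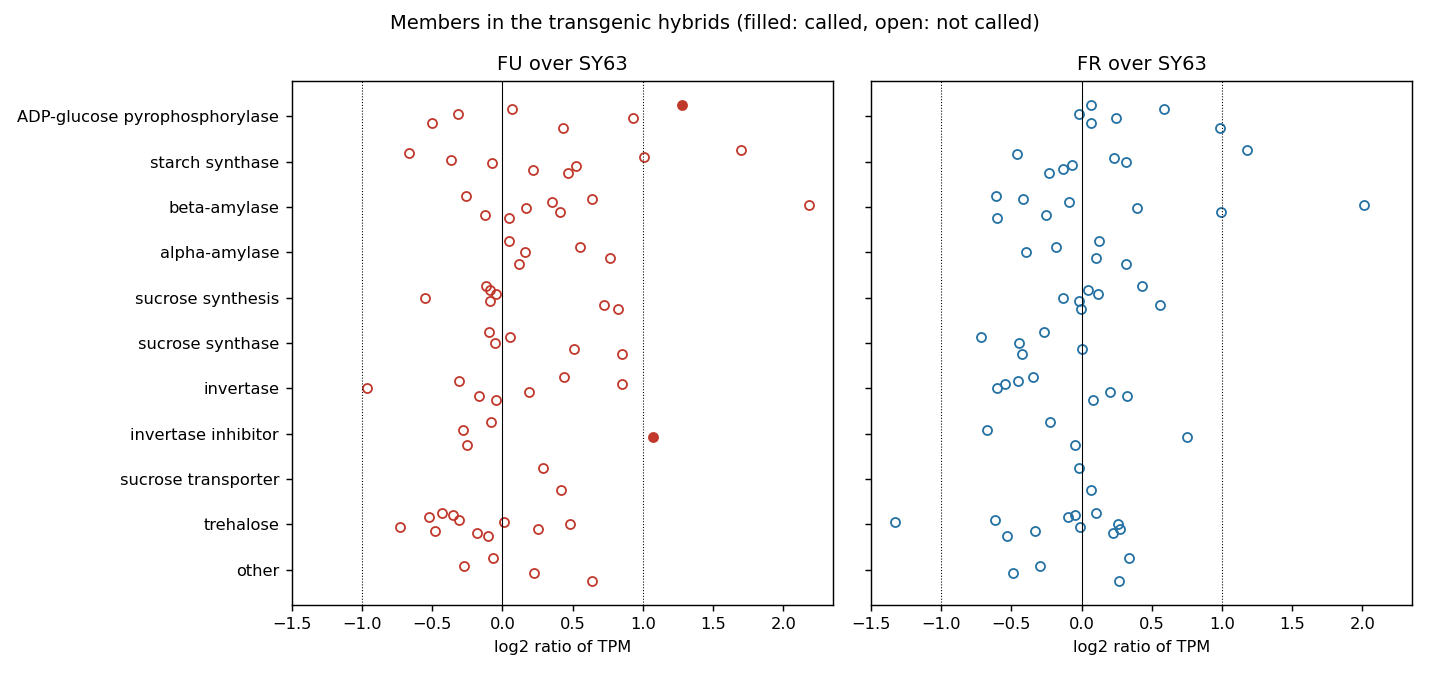
Log2 ratio of TPM of FU over SY63 (left) and FR over SY63 (right) for members with at least 20 tags in the pair and more than 3 in each library, by role group (vertical axis). Filled circles are called members and open circles are members that were not called. The 2 filled circles in FU lie at 1.28 and 1.07, and no circle is filled in FR.

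ADP-glucose pyrophosphorylase makes ADP-glucose, the glucose donor of starch synthesis. The descriptions call all 6 genes large subunits, which was not checked against their sequences. Whether some of them encode the small subunit of the enzyme was therefore not determined. LOC_Os03g52460 was the most abundant of the 6 genes over all libraries. It had 114 TPM in FU, 169 in FR, 161 in SY63, 70.5 in MH63 and 280 in ZS97. It was lower in MH63 than in ZS97 (354 and 1388 tags, log2 ratio -1.99, 95% interval -2.16 to -1.82), and SY63, with 783 tags, lay between them. Its log2 ratio to SY63 was -0.50 in FU (-0.66 to -0.34) and 0.06 in FR (-0.08 to 0.21), both short of a call. LOC_Os09g12660, a less abundant gene of the group, had 89 tags in FU, 40 in FR, 37 in SY63, 22 in MH63 and 57 in ZS97. FU was thus above each of the other libraries, and the gene was called against SY63 (log2 ratio 1.28, 0.71 to 1.87, FDR 5.51e-05) and against FR (1.21, 0.66 to 1.79, FDR 9.83e-05). LOC_Os01g44220 had its highest count in MH63, with 59 tags in FU, 90 in FR, 44 in SY63, 104 in MH63 and 55 in ZS97. It was called lower in SY63 than in MH63, and its FR to SY63 log2 ratio of 0.99 (0.45 to 1.54, FDR 0.00287) was just short of a call. LOC_Os08g25734 had 589 tags in FU, 876 in FR, 565 in SY63, 470 in MH63 and 558 in ZS97 and was called in no comparison, although its ratio of FR to SY63 had an interval clear of 0 (0.59, 0.43 to 0.74). The summed ADP-glucose pyrophosphorylase tags gave a log2 ratio of -1.11 (-1.22 to -1.0) for MH63 to ZS97 and 0.30 (0.20 to 0.39) for FR to SY63.

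Starch synthases lengthen the glucan chains of starch. Of 9 genes, 4 were lower in MH63 than in ZS97 and none higher, where 6.86% of all genes were called lower. Against MH63, 3 were higher in SY63 and none lower, where 7.10% of all genes were called higher. The main one, LOC_Os01g52250, had 131 TPM in FU, 80.8 in FR, 94.9 in SY63, 10.8 in MH63 and 75.4 in ZS97. MH63 alone was low, with 54 tags against 374 in ZS97 (log2 ratio -2.81, -3.25 to -2.40), and SY63 with 461 tags lay above both parents (3.14 over MH63, 2.73 to 3.58, and 1.14 over the mid-parent, 0.95 to 1.34). In FU, with 631 tags, it lay above SY63 (0.46, 0.29 to 0.64), which was too small for a call. LOC_Os02g51070 had the same low place in MH63, with 118 tags in FU, 96 in FR, 102 in SY63, 36 in MH63 and 119 in ZS97 (MH63 to ZS97 -1.74, -2.32 to -1.19, and SY63 to MH63 1.55, 0.99 to 2.14). The soluble starch synthase 3 gene LOC_Os04g53310 was called between the parents, with 84 tags in FU, 58 in FR, 59 in SY63, 29 in MH63 and 79 in ZS97 (MH63 to ZS97 -1.46, -2.13 to -0.83). So was LOC_Os06g06560, with 37 tags in FU, 58 in FR, 48 in SY63, 35 in MH63 and 83 in ZS97.

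Other starch synthase genes had other patterns. LOC_Os08g09230, described as starch synthase III, was highest in SY63, with 30 tags in FU, 36 in FR, 48 in SY63, 18 in MH63 and 25 in ZS97, and was called above MH63 (1.46, 0.66 to 2.33) and above the mid-parent (1.20, 0.57 to 1.83). LOC_Os05g45720, which was not called, was the only starch synthase gene above 20 tags with its highest count in MH63, with 167 tags in FU, 227 in FR, 177 in SY63, 304 in MH63 and 216 in ZS97. It made up 61.7% (exact binomial interval 57.2% to 66.0%) of the starch synthase tags in MH63 and 23.4% (20.7% to 26.3%) in ZS97. LOC_Os07g22930 was the starch synthase called between the transgenic hybrids, with 22 tags in FU, 2 in FR, 11 in SY63, 7 in MH63 and 18 in ZS97. Its log2 ratio of FU to FR was 3.52, with a wide interval of 1.49 to 6.65 because FR had 2 tags.

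**Figure D4:**
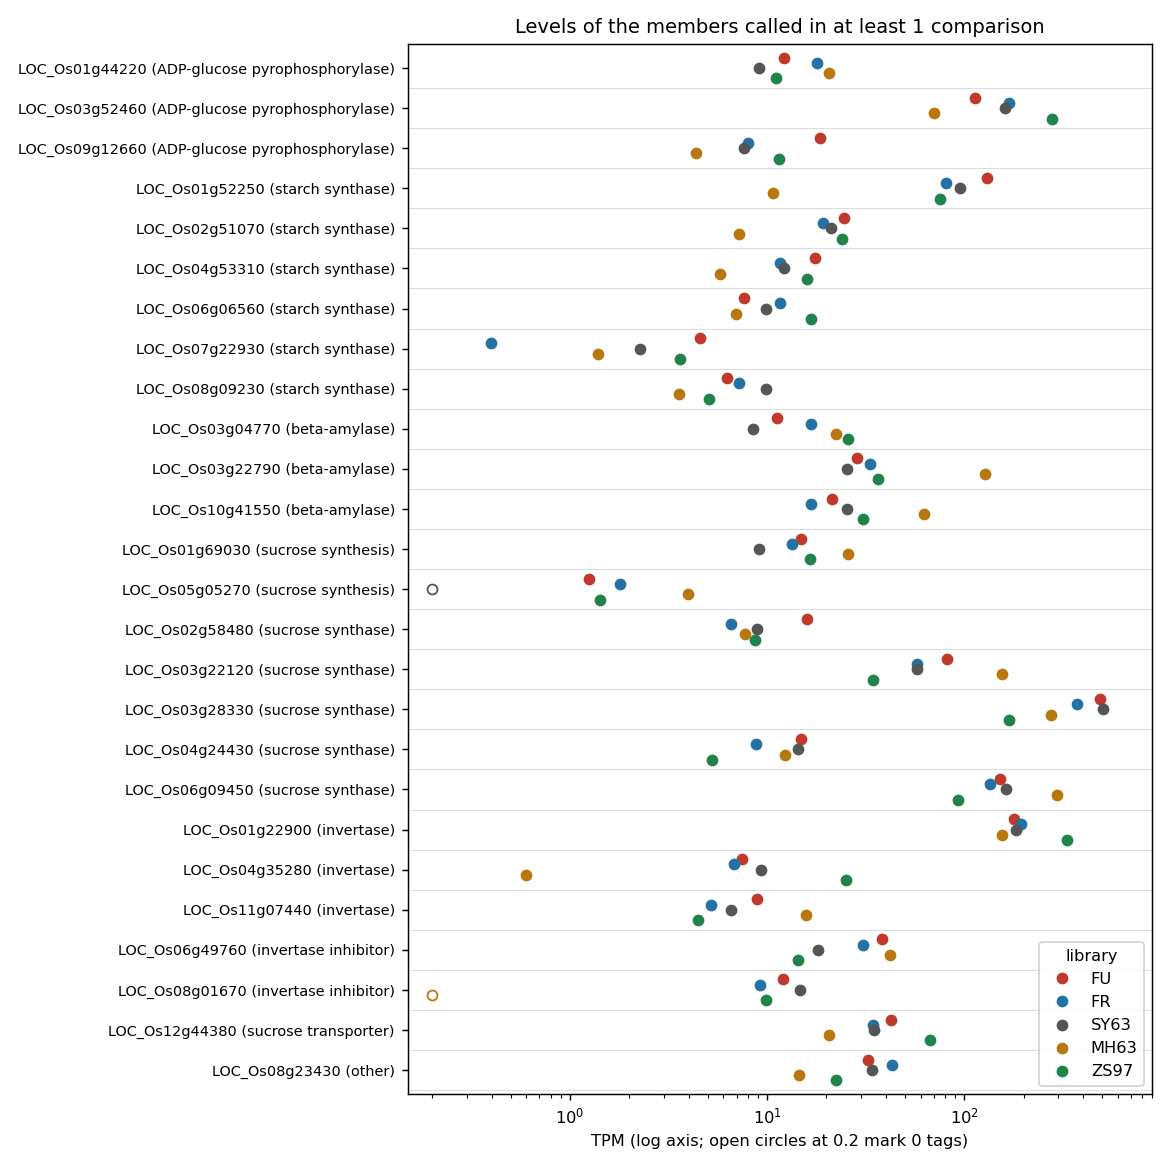
Level in TPM (horizontal axis, log scale) of the 26 members called in at least 1 comparison, by role group, with a point for each library (FU, FR, SY63, MH63 and ZS97 from top to bottom within a row). Open circles at 0.2 mark counts of 0. The library that stands apart differs between rows. MH63 is apart for LOC_Os01g52250 (10.8 TPM in MH63, 75.4 in ZS97) and LOC_Os03g22790 (128 TPM in MH63, 36.3 in ZS97), and ZS97 for LOC_Os01g22900 (332 TPM). FU is the highest for LOC_Os02g58480 (16.0 TPM in FU, 8.85 in SY63), where the difference from SY63 was not called.

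Beta-amylases release maltose from starch, and in Arabidopsis leaves they act in its breakdown at night. Summed beta-amylase tags were lower in SY63 than in MH63 (log2 ratio -1.28, -1.43 to -1.13) and higher in MH63 than in ZS97 (0.85, 0.72 to 0.99). LOC_Os03g22790 had 137 tags in FU, 167 in FR, 123 in SY63, 643 in MH63 and 180 in ZS97, so that MH63 was far above the rest and SY63 the lowest. It was called higher in MH63 than in ZS97 (1.82, 1.58 to 2.06), lower in SY63 than in MH63 (-2.34, -2.63 to -2.06) and below the mid-parent (-1.70, -1.99 to -1.43). LOC_Os10g41550 had a smaller difference of the same kind, with 103 tags in FU, 84 in FR, 124 in SY63, 313 in MH63 and 151 in ZS97 (SY63 to MH63 -1.29, -1.60 to -0.98). Its call between the parents was lost with either scaling factor, where the log2 ratio was 0.85 or 0.86.

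A different pattern was found for the beta-amylase gene LOC_Os03g04770, which was high in both parents and low in their hybrid. It had 54 tags in FU, 84 in FR, 41 in SY63, 112 in MH63 and 128 in ZS97. SY63 was called below MH63 (-1.40, -1.95 to -0.87), below ZS97 (-1.61, -2.16 to -1.10) and below the mid-parent (-1.51, -2.03 to -1.03). FR lay above SY63 by a log2 ratio of 0.99 (0.43 to 1.57, FDR 0.00433), short of a call. The beta-amylase gene LOC_Os07g35940, picked once the values were known, had 27 tags in FU, 25 in FR, 6 in SY63, 0 in MH63 and 4 in ZS97. Both transgenic hybrids were above the other libraries, at a log2 ratio to SY63 of 2.18 in FU (FDR 0.00285) and 2.01 in FR (FDR 0.0132), which did not reach a call at these low counts.

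Alpha-amylases cut starch chains internally and are best known from germinating rice grains. None of the 7 genes was called in any comparison. The most abundant was LOC_Os08g40930, with 123 tags in FU, 135 in FR, 120 in SY63, 95 in MH63 and 158 in ZS97, and its log2 ratio of MH63 to ZS97 was -0.75 (-1.14 to -0.38). LOC_Os04g33040, picked once the values were known, had 159 tags in FU, 104 in FR, 94 in SY63, 72 in MH63 and 94 in ZS97, and its log2 ratio of FU to SY63 was 0.77 (0.39 to 1.15, FDR 0.000501), under the ratio needed for a call.

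Sucrose-phosphate synthase and sucrose-phosphatase are the last enzymes of sucrose synthesis. Their 8 genes summed to 424 TPM in FU, 490 in FR, 436 in SY63, 404 in MH63 and 511 in ZS97, and 2 genes were called. The sucrose-phosphate synthase gene LOC_Os11g12810 was the most abundant and was called in no comparison, with 569 tags in FU, 863 in FR, 622 in SY63, 629 in MH63 and 820 in ZS97. Its FR to SY63 log2 ratio of 0.43 (0.28 to 0.58) had an interval clear of 0. The sucrose-phosphate synthase gene LOC_Os01g69030 was lowest in SY63, with 72 tags in FU, 67 in FR, 44 in SY63, 129 in MH63 and 82 in ZS97. SY63 was called below MH63 (-1.50, -2.03 to -1.0) and below the mid-parent (-1.22, -1.73 to -0.75). The sucrose-phosphatase gene LOC_Os05g05270 was near the limit of detection, with 6 tags in FU, 9 in FR, 0 in SY63, 20 in MH63 and 7 in ZS97. With SY63 set to the limit of 3 tags, its log2 ratio was -2.69 to MH63 and -2.13 to the mid-parent. Both values leave out the counting error of the parental counts.

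Sucrose synthase cleaves sucrose into fructose and UDP-glucose, which feeds cellulose and starch synthesis. Its transcripts were the most abundant of the metabolic role groups in FU, FR, SY63 and MH63, and the summed level in ZS97 was lower than in the others (SY63 to ZS97 1.27, 1.19 to 1.36). LOC_Os03g28330 had 487 TPM in FU, 371 in FR, 506 in SY63, 275 in MH63 and 169 in ZS97. The 3 hybrid libraries were thus above both parents for this gene. SY63 with 2460 tags was called above ZS97 with 838 (1.58, 1.47 to 1.70) and above the mid-parent (1.19, 1.11 to 1.27), and its ratio to MH63 with 1379 tags was 0.88 (0.79 to 0.98). FR with 1861 tags was below SY63 (-0.45, -0.54 to -0.36, FDR 7.1e-22), a difference clear of counting error but under the ratio needed for a call.

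LOC_Os06g09450 and LOC_Os03g22120 were sucrose synthase genes with their peak in MH63. LOC_Os06g09450 had 731 tags in FU, 676 in FR, 788 in SY63, 1486 in MH63 and 463 in ZS97 (MH63 to ZS97 1.66, 1.51 to 1.82). LOC_Os03g22120 had 393 tags in FU, 287 in FR, 278 in SY63, 778 in MH63 and 170 in ZS97 (MH63 to ZS97 2.18, 1.93 to 2.42, and SY63 to MH63 -1.44, -1.64 to -1.24). The make-up of the group therefore differed while its sum did not, as SY63 and MH63 had a ratio of sums of 0.01 (-0.06 to 0.07). LOC_Os03g28330 held 67.5% (exact binomial interval 66.0% to 69.0%) of the sucrose synthase tags in SY63 and 36.8% (35.2% to 38.3%) in MH63.

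The less abundant sucrose synthase genes separated other libraries. LOC_Os04g24430 had 72 tags in FU, 44 in FR, 70 in SY63, 62 in MH63 and 26 in ZS97 and was called above ZS97 in SY63 (1.46, 0.79 to 2.17), while its call between the parents was lost with either scaling factor. LOC_Os02g58480 had 77 tags in FU, 33 in FR, 43 in SY63, 39 in MH63 and 43 in ZS97, with FU above the others. The gene was not called in FU against SY63 (0.85, 0.29 to 1.42). It was called higher in FU than in FR (1.28, 0.67 to 1.91, FDR 0.000175). All 5 sucrose synthase genes with at least 20 tags in the pair had a log2 ratio of FU to FR above 0. The summed ratio was 0.38 (0.31 to 0.45), and the median over all genes was 0.07. The summed ratio to SY63 was 0.00 (-0.06 to 0.07) in FU and -0.37 (-0.44 to -0.30) in FR.

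**Figure D5:**
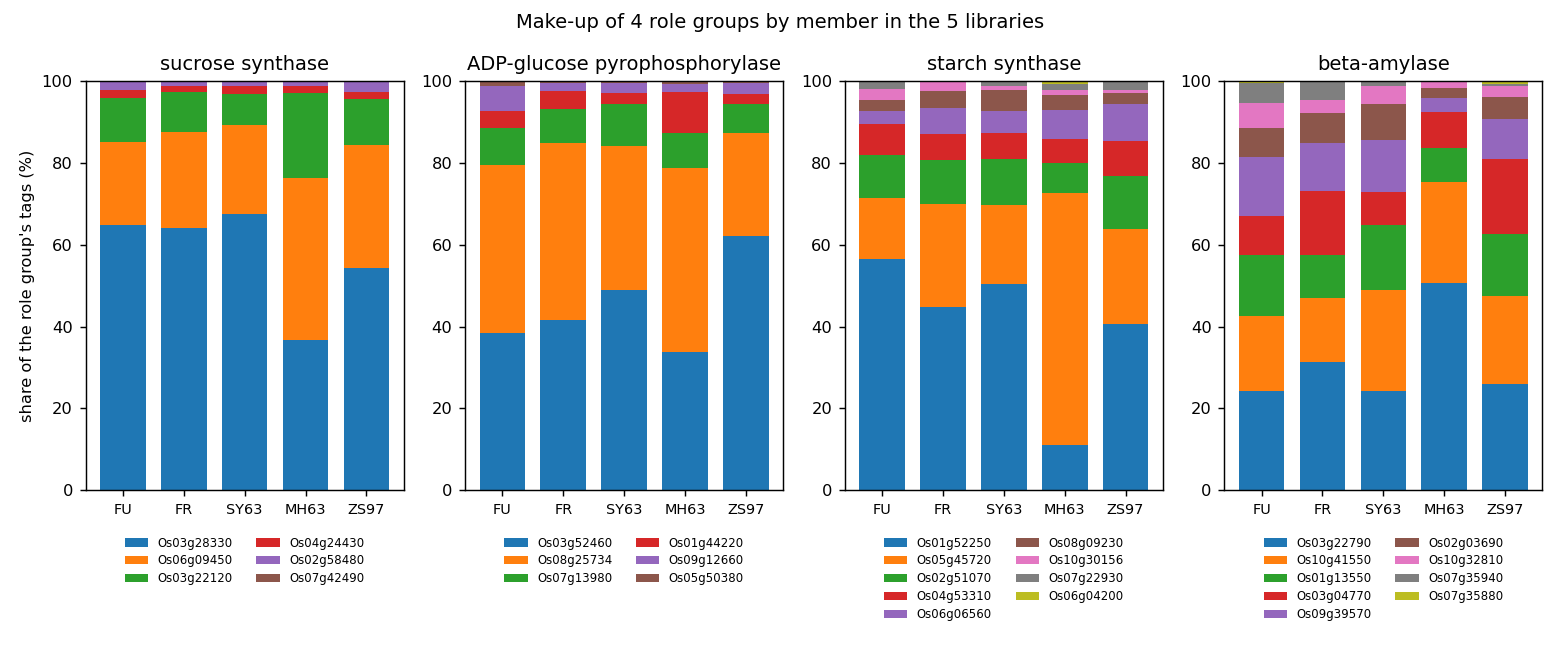
Share of each role group's tags (vertical axis, percent) held by each member in the 5 libraries, for sucrose synthase, ADP-glucose pyrophosphorylase, starch synthase and beta-amylase, with members ordered from the bottom by mean share. LOC_Os03g28330 fills 67.5% of the sucrose synthase bar in SY63 and 36.8% in MH63, and LOC_Os05g45720 fills 61.7% of the starch synthase bar in MH63 and 23.4% in ZS97.

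Invertases split sucrose into glucose and fructose, and the 7 members of this role were all of the neutral or alkaline kind found inside the cell. LOC_Os01g22900 was the most abundant, with 178 TPM in FU, 195 in FR, 184 in SY63, 155 in MH63 and 332 in ZS97, and it was called lower in MH63 than in ZS97 (777 and 1646 tags). ZS97 was thus above all other libraries, the hybrids included. LOC_Os04g35280 had 36 tags in FU, 34 in FR, 45 in SY63, 3 in MH63 and 124 in ZS97. The hybrids lay between the parents, with SY63 called above MH63 (3.96, 2.32 to 6.29) and below ZS97 (-1.43, -1.96 to -0.93), and the ratio of MH63 to ZS97 was -5.39 (-7.69 to -3.81) on 3 tags. LOC_Os11g07440 was highest in MH63, with 43 tags in FU, 26 in FR, 32 in SY63, 79 in MH63 and 22 in ZS97 (MH63 to ZS97 1.83, 1.13 to 2.58, and SY63 to MH63 -1.26, -1.90 to -0.65).

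Proteins of the invertase and pectin methylesterase inhibitor family bind these enzymes and block them, and the descriptions do not say which enzyme a member acts on. LOC_Os10g36500 dominated the group and was the most abundant of all 81 members, with 560 TPM in FU, 506 in FR, 591 in SY63, 477 in MH63 and 568 in ZS97, and it was called in no comparison. LOC_Os06g49760 had 184 tags in FU, 153 in FR, 88 in SY63, 211 in MH63 and 71 in ZS97. FU and FR were nearer to MH63 and SY63 nearer to ZS97 in this gene. It was called higher in FU than in SY63 (1.07, 0.70 to 1.46, FDR 1.22e-07), and the ratio fell below 1 with TMM factors (0.99). FR was not called against SY63 (0.75, 0.37 to 1.15, FDR 0.00168), and the ratio of FU to FR was 0.32 (0.00 to 0.64). Between the parents it was higher in MH63 (1.55, 1.16 to 1.96). LOC_Os08g01670 had 58 tags in FU, 46 in FR, 71 in SY63, 0 in MH63 and 49 in ZS97. With MH63 set to the limit of 3 tags, its log2 ratio of SY63 to MH63 was 4.61 and that of MH63 to ZS97 was -4.05. Both values leave out the counting error of the other library. SY63 was also called above the mid-parent (1.56, 1.03 to 2.13). This was the highest such ratio of the 67 members with at least 20 tags summed over SY63 and its parents. It rests in part on the count of 0 in MH63, which lowers the mid-parent value.

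Sucrose transporters move sucrose across membranes, and the descriptions do not say which membrane a member acts at. LOC_Os12g44380 had 205 tags in FU, 172 in FR, 169 in SY63, 103 in MH63 and 332 in ZS97 and was called lower in MH63 than in ZS97 (-1.71, -2.04 to -1.38). The other transporter gene, LOC_Os03g07480, had the opposite order in the parents, with 162 tags in FU, 132 in FR, 122 in SY63, 187 in MH63 and 98 in ZS97, a log2 ratio of MH63 to ZS97 of 0.91 (0.55 to 1.28) that was not called. LOC_Os12g44380 thus made up 35.5% (exact binomial interval 30.0% to 41.3%) of the transporter tags in MH63 and 77.2% (72.9% to 81.1%) in ZS97, with the 3 hybrid libraries between 55.9% (FU) and 58.1% (SY63).

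The trehalose group held 6 genes described as trehalose-6-phosphate synthase, 4 described as trehalose synthase and 2 trehalose phosphatase genes, and no gene of it was called in any comparison. The most abundant, LOC_Os02g54820, had 249 tags in FU, 287 in FR, 350 in SY63, 489 in MH63 and 393 in ZS97. FU was the lowest library for this gene, with a log2 ratio to SY63 of -0.48 (-0.72 to -0.24). The same was true of the sum over the group, with 255 TPM in FU, 303 in FR, 317 in SY63, 371 in MH63 and 350 in ZS97. Summed tags gave a log2 ratio to SY63 of -0.31 (-0.42 to -0.20) in FU, where 8 of 11 genes were below 0. In FR it was -0.07 (-0.17 to 0.04), where 7 of 11 were below 0. The median ratio to SY63 over all genes was 0.05 in FU and -0.04 in FR. LOC_Os05g44100, a trehalose synthase gene chosen after its values were seen, had the lowest FU to SY63 ratio of the group (-0.73, -1.02 to -0.44), with 161 tags in FU, 276 in FR, 269 in SY63, 182 in MH63 and 273 in ZS97.

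The remaining 5 members were 3 starch binding domain genes and 2 genes described as impaired sucrose induction 1. The starch binding domain gene LOC_Os08g23430 had 157 tags in FU, 216 in FR, 166 in SY63, 73 in MH63 and 111 in ZS97. MH63 was the lowest, and SY63 was called above it (1.23, 0.83 to 1.65).

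The place of the hybrids between their parents was described for the 59 members with at least 20 tags in a parent. In SY63 25 of them lay between the parents, 18 above both and 16 below both, or 42.4%, 30.5% and 27.1%, against 44.6%, 22.5% and 32.9% of 14498 genes chosen in the same way. In FU 21 lay between the parents, 20 above both and 18 below both, or 35.6%, 33.9% and 30.5%, against 41.2%, 28.0% and 30.8% of all genes. In FR 32 lay between, 13 above both and 14 below both, or 54.2%, 22.0% and 23.7%, against 44.2%, 21.6% and 34.2% of all genes. SY63 was nearer to ZS97 than to MH63 in 43 members (72.9%, against 67.9% of all genes), FU in 39 (66.1%, against 62.9%) and FR in 43 (72.9%, against 66.3%). The differences between members and all genes in these shares were not tested.

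The other genes of the pathways were taken from a list of 46 that surround the members, such as branching enzymes, water dikinases, hexokinases, phosphoglucomutases and fructose-1,6-bisphosphatases. It also held 9 phosphofructokinase genes, which entered through the word fructokinase. Of 46 tested, 5 were higher and 2 lower in SY63 than in MH63 (5 and 1 without the phosphofructokinases), which was 15.2%, against 16.5% of all genes. Of 43 tested, 4 were higher and 7 lower in MH63 than in ZS97 (3 and 7), which was 25.6%, against 17.5% of all genes. The genes low in MH63 included LOC_Os06g30310, an alpha-glucan water dikinase that phosphorylates starch for its breakdown, with 128 tags in FU, 67 in FR, 83 in SY63, 14 in MH63 and 72 in ZS97 (MH63 to ZS97 -2.38). They also included the branching enzyme gene LOC_Os06g51084, with 329 tags in FU, 197 in FR, 270 in SY63, 75 in MH63 and 224 in ZS97 (MH63 to ZS97 -1.60). In FU 1 of 46 tested was higher than in SY63 and 0 lower (2.17%, against 3.0% of all genes), and in FR 0 were called. The gene higher in FU was the fructose-1,6-bisphosphatase gene LOC_Os05g36270, with 95 tags in FU, 39 in FR, 33 in SY63, 41 in MH63 and 57 in ZS97 (FU to SY63 1.54, FU to FR 1.34). Between FU and FR 2 genes of the list were higher in FU and 1 lower, of 46 tested (6.52%, against 3.22% of all genes). Beside LOC_Os05g36270 they were LOC_Os06g48760, a UTP-glucose-1-phosphate uridylyltransferase gene with 185 tags in FU and 88 in FR (1.13), and a second fructose-1,6-bisphosphatase gene that went the other way, LOC_Os06g45370, with 122 tags in FU and 293 in FR (-1.21).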

How the data were processed

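Tag libraries of seedlings were made from 5 rice genotypes, 1 each. The authors cut cDNA with NlaIII, released tags with MmeI, sequenced them on an Illumina instrument and matched the clean tags to MSU rice cDNAs (version 6.1) with at most 1 mismatch. They discarded tags that matched several genes, and the deposited counts of tags per gene are not normalized. The authors scaled these counts by all clean tags of the library to give the deposited TPM, with 0.01 in place of 0. The software they used for matching is not given in the sources used here. The deposited fold changes, p-values and FDR of the authors, their filtered lists and a table of genome-matched tags were not used.

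Counts and TPM were joined by gene, with missing genes as 0, and totals of clean tags were recovered from their ratio. No gene had a count of 1. Libraries were compared in pairs with the 2-sided exact test of Audic and Claverie and Benjamini-Hochberg adjustment over genes with a tag in either library (Python 3.11.15, scipy 1.17.1). The SY63 count was tested against the summed parental counts for the mid-parent comparison. A quasi-likelihood test of edgeR needs replicates and was not fitted. Intervals of ratios and shares are exact binomial and of levels exact Poisson. Alternatives were edgeR 4.0.16 TMM factors, DESeq2 1.42.0 size factors, a filter at 10 tags, 1 added to TPM, other tag minimums for medians, a geometric mid-parent, and edgeR's exact test with an assumed coefficient of variation of 0.2. The test was also run on simulated Poisson counts. These hold no variation between libraries beyond counting, so they do not check that limit.

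Members were named when called with at least 20 tags in the higher library, or when most abundant in their role group. Where more than 10 were called in a comparison, ratios are given for the 10 largest with more than 3 tags in the lower library, and for members at 3 tags or fewer. LOC_Os08g25734, LOC_Os05g45720, LOC_Os07g35940, LOC_Os04g33040, LOC_Os03g07480 and LOC_Os05g44100 were named after their values were seen. The members and lists were chosen with earlier results of these data known. No gene of the tables matched the reference table at hand, so genes carry the identifiers and descriptions of the deposited files, and no sequences or coordinates are given.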

Additional observations from a re-analysis of the deposited data

How the results depend on the processing

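Each comparison rests on 1 library per genotype, so leaving out a library leaves none in its group. No paired analysis was possible, because 1 library per genotype gives no set of pairs. Allowing for variation beyond counting changed the counts of members called the most. At an assumed coefficient of variation of 0.2 (edgeR's exact test), the count was 0 in place of 2 for FU against SY63, 0 in place of 3 for FU against FR, 5 in place of 16 for SY63 against MH63, 0 in place of 4 for SY63 against ZS97 and 6 in place of 17 for MH63 against ZS97. Over all genes it called 33 higher and 3 lower in place of 467 and 173 (FU against SY63), 4 and 0 in place of 123 and 121 (FR against SY63), 33 and 3 in place of 539 and 145 (FU against FR), 407 and 286 in place of 1487 and 1962 (SY63 against MH63), 128 and 4 in place of 598 and 222 (SY63 against ZS97) and 524 and 424 in place of 2192 and 1411 (MH63 against ZS97), and it was not run for the mid-parent. Of 42 calls of named members, 11 held under it, and they were those of LOC_Os01g52250, LOC_Os03g22790, LOC_Os04g35280, LOC_Os05g05270 and LOC_Os08g01670 for SY63 against MH63, and of LOC_Os01g52250, LOC_Os03g22120, LOC_Os03g22790, LOC_Os03g52460, LOC_Os04g35280 and LOC_Os08g01670 for MH63 against ZS97. With TMM factors 1 member in place of 2 was called for FU against SY63, and 39 of the 42 calls held, with DESeq2's size factors 40. The calls lost were LOC_Os06g49760 for FU against SY63 (0.99, TMM factors only) and, for MH63 against ZS97, LOC_Os04g24430 (1.06) and LOC_Os10g41550 (0.85 and 0.86). The share of called members that were higher in SY63 than in MH63 was 43.8%, and 55.0% (TMM factors) or 52.6% (DESeq2's size factors), and for MH63 against ZS97 it was 41.2%, and 29.4% with either. The share over all genes moved likewise, with 43.1%, and 57.8% or 55.5%, for SY63 against MH63 and 60.8%, and 46.2% or 46.6%, for MH63 against ZS97. In the pair comparisons no call of a named member changed direction with TMM factors, DESeq2's size factors or the assumed variation. For the other alternatives only the counts of calls were compared. Against the mid-parent 8 members were called under each of its alternatives, 4 higher and 4 lower, and whether they were the same members was not compared. At this depth a count of 0 in 1 library could not be told from up to 3 tags, which limits LOC_Os05g05270, LOC_Os08g01670 and 13 members with no more than 9 tags in every library.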
